A study of Homo sapiens with 4 samples.

Results

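CLEC2B and 7 further genes for ligands of natural killer (NK) cell receptors were followed across 4 expression arrays of A549, an established human lung adenocarcinoma cell line. They are CLEC2B, CLEC2D, MICA, MICB, ULBP1, ULBP2, ULBP3 and NCR3LG1, and every probe annotated with 1 of these symbols alone was used. They had 12 of the 31741 probes and made up 8 of the 18255 named genes. CLEC2B was chosen by its high value on the siPML array in earlier results of these data, so its differences are given as a description. The other members were added for their role, with those earlier results known. The arrays held Cy5-labelled amplified RNA, made from total RNA collected 48 h after transfection with a control siRNA (siCtrl), with an siRNA against PML (siPML), with an empty vector (vector) or with a WDR4 expression construct (WDR4). There was 1 array per group and there were no replicate cultures, so no test was run, higher and lower refer to single arrays, and a difference due to treatment and one between cultures cannot be told apart. The sources used here do not name the promoter of the construct, the siRNA sequences or the transfection reagent.

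NK cells weigh signals from activating and inhibitory receptors that read proteins on the surface of other cells. AICL, the product of CLEC2B, is the ligand of the activating receptor NKp80 (gene KLRF1) and is best known from myeloid cells. LLT1, the product of CLEC2D, is the ligand of the inhibitory receptor CD161 (gene KLRB1). MICA, MICB and the ULBP proteins are relatives of MHC class I that cells display under stress, among them many carcinoma lines, and all of them bind the activating receptor NKG2D (gene KLRK1). B7-H6, the product of NCR3LG1, is a tumour cell ligand of the activating receptor NKp30 (gene NCR3). The arrays measured RNA, and surface protein and shed protein were not measured.

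Values are deposited probe intensities in arbitrary units. A difference is that of log2 values, each taken after adding 1 to the intensity. A probe's level is compared between arrays as deposited. Levels of different probes cannot be compared as amounts of RNA, so bright, dim and summed levels refer to signal only. Values of 2 to 600 units could be split into the 2 readings they are the mean of, for 98.4% to 100% of values in each range of level on each array. Whether these pairs come from arrays, scans or spots is not stated, so they count as 1 replicate. Their spread gave a technical standard error (SE) for each difference, which covers none of the variation between cultures. For probes above 600 units the SE is that of the range from 300 to 600 units. The array medians lay between 106 and 134 units. On siPML the 4 probes for PML differed from siCtrl by -1.44 to -0.28. The brighter WDR4 probe was 4.13-fold higher on WDR4 than on vector, and the dimmer one differed by -0.42.

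CLEC2B was bright on every array and far brighter on siPML than on the others. Its single probe read 37793 on siPML, 8123 on WDR4, 6100.0 on vector and 3614 on siCtrl. The siPML value was below the highest value of any probe on that array, 65733.5. siPML exceeded siCtrl 10.5-fold, a log2 difference of 3.39 ± 0.11 (technical SE), and exceeded the vector array 6.20-fold (2.63). Among the 9128 named genes with a mean log2 level at or above the median of all, it ranked 1st for this difference. Among all 18255 named genes, dim ones included, it ranked 22nd. CLEC2B was chosen by its high siPML value in these data, so its ranks are only a description. The probes of like intensity had a median difference of -0.06 between these arrays.

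On the plasmid arrays CLEC2B differed much less. WDR4 exceeded vector 1.33-fold (0.41 ± 0.08, technical SE), where probes of like intensity had a median of -0.07. The vector array in turn exceeded siCtrl 1.69-fold (0.76 ± 0.09, technical SE), and WDR4 exceeded siCtrl 2.25-fold (1.17). Of the 4 arrays, siCtrl was therefore the lowest for CLEC2B, and part of the siPML difference depends on which control is used.

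**Figure D1:**
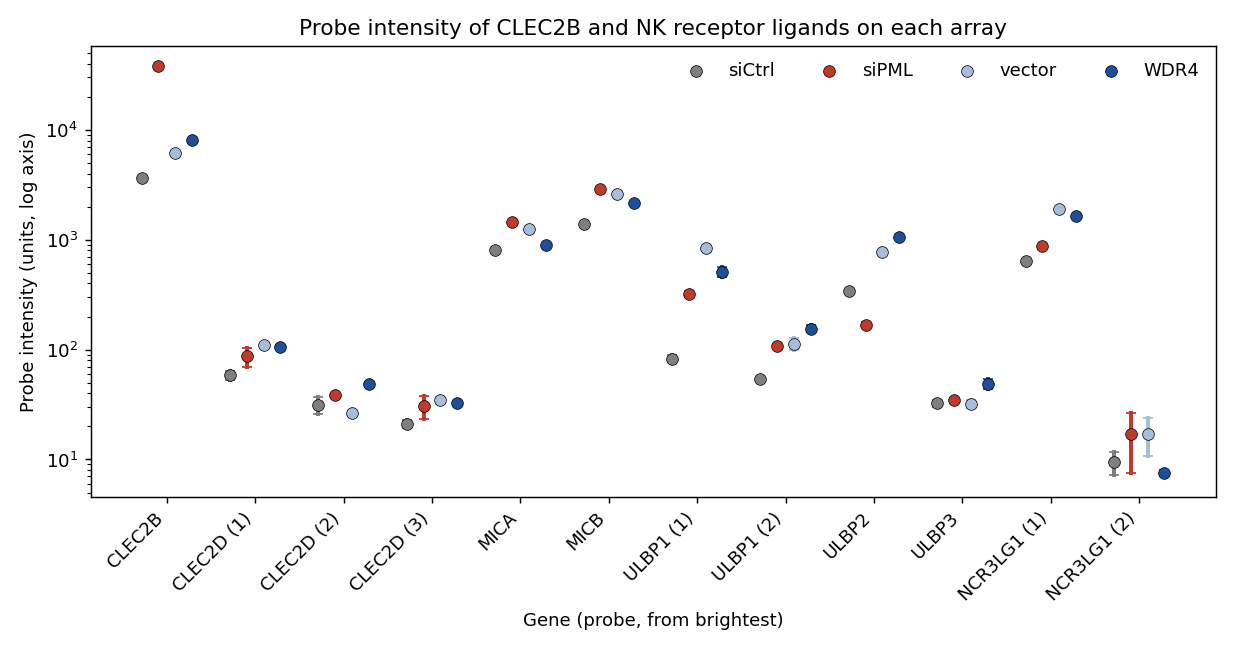
Probe intensity (arbitrary units, log axis) of each of the 12 probes on the 4 arrays, 1 point per array. Bars with ticks span the paired readings where these could be split. CLEC2B reads 37793 on siPML against 3614 to 8123 on the other arrays, ULBP2 is lowest on siPML, and ULBP1 is lowest on siCtrl with both probes.

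CLEC2B lies in a cluster of C-type lectin genes on chromosome 12, the NK gene complex, and the genes around it were dim on all arrays. The 4 nearest genes with a probe on each side were KLRF1, CD69, CLECL1 and CLEC2D on one side and CLEC2A, KLRF2, CLEC12A and CLEC1B on the other, in the RefSeq gene order. Their 11 probes read between 2.01 and 110 units. CD69, an early activation marker of lymphocytes, read 2.49 on siCtrl and 4.01 on siPML. CLEC2A, whose product is the ligand of the receptor encoded by KLRF2, read 15.5 and 21.9. KLRF2 itself read 15.5 on siCtrl and 41.0 on siPML and was lower than on siCtrl on both plasmid arrays, and its difference of 1.35 between siPML and siCtrl was the highest among these neighbours. RefSeq lists CLEC2B also as an older name of CLEC1B, a platelet receptor gene, whose own probe read 2.01 to 3.01.

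The genes with a pattern most like that of CLEC2B were TNFSF9, TCN1, MARCHF4, A1CF, LONRF1 and HK2, by the Euclidean distance between 4 log2 values, 1 per array, each set against its gene's mean. The distances ran from 0.91 for TNFSF9 to 1.29 for HK2. TNFSF9, the ligand of the costimulatory receptor 4-1BB on T cells and NK cells, read 2060.4 on siPML, 786 on WDR4, 636 on vector and 459 on siCtrl. HK2, a hexokinase, read 3681, 2376, 1641 and 919 in the same order. All 6 genes were highest on siPML, which their choice by likeness to CLEC2B favours. TNFSF9, MARCHF4, LONRF1 and HK2 were lowest on siCtrl, as CLEC2B was, while TCN1 (1061 on siCtrl and 992 on vector) and A1CF (218 and 210.4) were lowest on vector. Among the other NK ligands the nearest to CLEC2B was MICB, at a distance of 1.99, and the farthest was ULBP2, at 4.08. A likeness over 4 arrays is a description of these arrays.

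**Figure D2:**
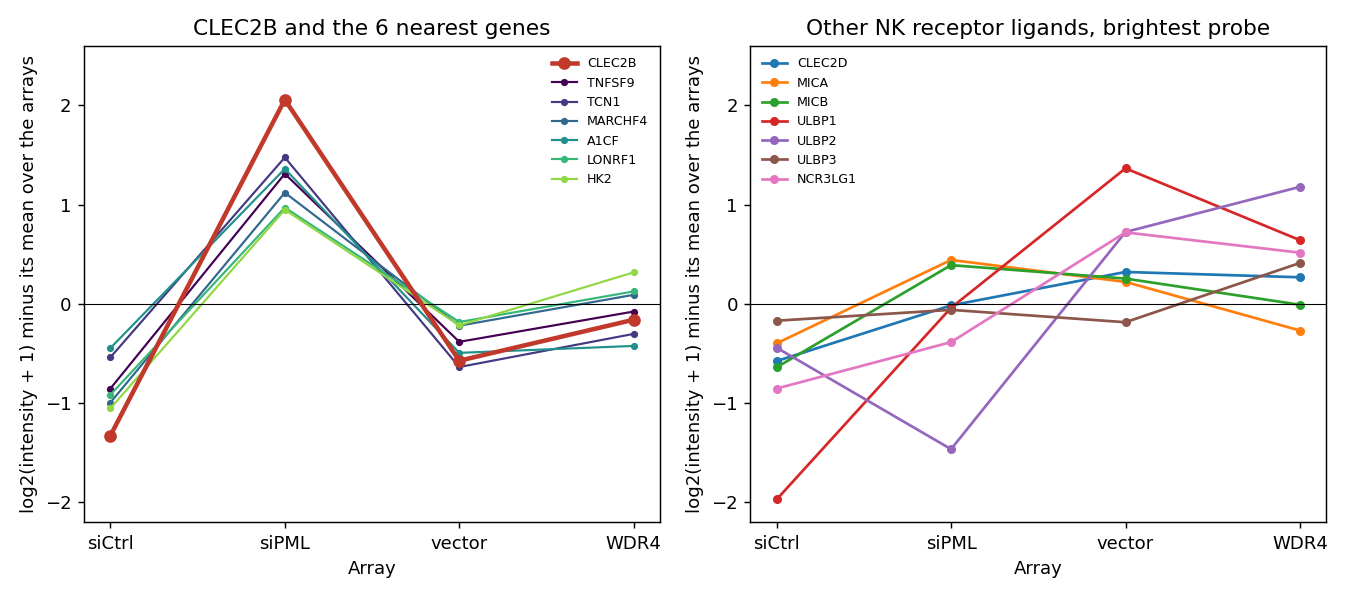
Log2(intensity + 1) on each array minus the gene's mean over the 4 arrays, for CLEC2B with its 6 nearest genes (left) and for the brightest probe of the other 7 NK receptor ligands (right). The genes on the left peak on siPML, whereas on the right MICA and MICB run close together, ULBP2 dips on siPML and ULBP1, ULBP2 and NCR3LG1 are high on both plasmid arrays.

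CLEC2D was dim with all 3 probes. Its brightest probe read 58.3 on siCtrl and 86.5 on siPML, with 110 on vector and 106 on WDR4. The paired readings were 64.1 and 52.5 on siCtrl and 103 and 70.1 on siPML. They did not overlap, and the difference of 0.56 ± 0.20 (technical SE) stands beside a median of 0.27 for probes of like intensity. The further probes differed by 0.31 and 0.52 in the same comparison, where the medians of their neighbours in level were 0.29 and 0.33. Between WDR4 and vector the 3 probes disagreed, at -0.05, 0.86 and -0.09. LLT1 RNA was thus higher on siPML than on siCtrl with each probe, by little more than probes of this level in general.

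MICA and MICB, the transmembrane ligands of NKG2D, moved together. MICA read 813 on siCtrl and 1456 on siPML, with 1249 on vector and 889 on WDR4. MICB read 1405, 2868, 2610.4 and 2174 in the same order. For both genes siPML was highest, followed by vector, WDR4 and siCtrl. MICA differed between siPML and siCtrl by 0.84 ± 0.11 and MICB by 1.03 ± 0.11 (technical SE), so MICB lay within 1 SE of the 2-fold line. Between WDR4 and vector both were lower, by -0.49 ± 0.08 for MICA and -0.26 ± 0.08 for MICB (technical SE), where probes of like intensity had medians of -0.08 and -0.07. The vector array lay above siCtrl by 0.62 for MICA and 0.89 for MICB. Their distance in pattern, 0.36, was the smallest among all pairs of members.

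MICA and MICB are near copies, and each had 1 probe, so signal shared between them was not tested. The windows from 250 bases before to 50 bases after their starts, from RefSeq (GRCh38.p14, plus strand), were 86.6% identical over 284 aligned bases. They are printed because these genes moved together, with capitals marking every match to 5 short motifs searched on both strands. The motifs were TGACG (the core of cAMP response elements, which proteins of the ATF and CREB families bind), GAANNTTC (an inverted pair of heat shock units), an interferon-stimulated response element (GAAA, any 2 bases, GAAA), an NF-kB site (GGGA, any 2 bases, TTCC) and ACGTG (the core of hypoxia response elements). Both windows hold 1 heat shock pair, found in 6.77% of 35116 promoter windows of this length. The MICB window also holds 1 hypoxia core, found in 21.4% of all windows. A match is only a match of letters.
MICA, chr6:31403345-31403644: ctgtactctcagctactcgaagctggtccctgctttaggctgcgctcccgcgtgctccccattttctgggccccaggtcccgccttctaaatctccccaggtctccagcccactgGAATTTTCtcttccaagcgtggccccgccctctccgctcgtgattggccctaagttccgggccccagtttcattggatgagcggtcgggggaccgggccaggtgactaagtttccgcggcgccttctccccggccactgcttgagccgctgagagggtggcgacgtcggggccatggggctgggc
MICB, chr6:31497895-31498194: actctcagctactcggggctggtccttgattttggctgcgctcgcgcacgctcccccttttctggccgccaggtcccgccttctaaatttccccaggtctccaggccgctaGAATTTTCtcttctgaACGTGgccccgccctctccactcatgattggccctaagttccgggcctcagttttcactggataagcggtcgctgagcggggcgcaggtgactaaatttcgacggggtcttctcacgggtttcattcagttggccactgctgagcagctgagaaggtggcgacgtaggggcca

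ULBP1, a ligand of NKG2D held in the membrane by a lipid anchor, differed most between arrays after CLEC2B and was lowest on siCtrl with both probes. The brighter probe read 82.8 on siCtrl and 319 on siPML, with 846 on vector and 512 on WDR4. Its paired readings were 88.4 and 77.2 on siCtrl against 338 and 299 on siPML, without overlap. siPML exceeded siCtrl 3.85-fold (1.93 ± 0.15, technical SE). The dimmer probe read 53.5, 108, 113 and 155 in the same order of arrays and differed by 1.00 ± 0.15 (technical SE) between siPML and siCtrl. Both probes were thus higher on siPML, by different amounts.

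The comparison of ULBP1 between WDR4 and vector turned with the probe. The brighter one differed by -0.72 ± 0.08 and the dimmer one by 0.46 ± 0.09 (technical SE), so no direction can be given for the gene. Both probes were above siCtrl on vector, by 3.34 and 1.06. The siPML array lay below the vector array with the brighter probe (-1.41) and close to it with the dimmer one (-0.06).

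ULBP2, another lipid-anchored ligand of NKG2D, went the other way on siPML. It read 343 on siCtrl and 169 on siPML, with 772 on vector and 1058 on WDR4, so siPML was the lowest of the 4 arrays. The paired readings were 350 and 337 on siCtrl and 177 and 160 on siPML, without overlap. siPML was 2.04-fold lower than siCtrl (-1.02 ± 0.12, technical SE), while probes of like intensity had a median of 0.12. WDR4 exceeded vector 1.37-fold (0.46 ± 0.08, technical SE), and vector exceeded siCtrl 2.25-fold (1.17).

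The windows around the starts of ULBP1 and ULBP2 are also from RefSeq (GRCh38.p14, plus strand). They are shown because both genes were at least 2-fold higher on both plasmid arrays than on siCtrl. NCR3LG1 was so too with its brighter probe, while the dimmer one differed from siCtrl by 0.80 on vector and -0.30 on WDR4. The NCR3LG1 window held none of the 5 motifs, so it is not printed. On vector 7 of the 8 members lay above siCtrl with their brightest probe, where 52.7% of all named genes did. Among them were CLEC2D (0.90), MICB (0.89) and MICA (0.62). The further CLEC2D probes disagreed there, at -0.23 and 0.69. The windows of ULBP1 and ULBP2 each hold 3 matches to the cAMP response element core. Of all windows, 24.6% hold it at least once and 1.40% at least 3 times. Those of CLEC2D, MICA, MICB, ULBP3 and NCR3LG1 do not hold it. Whether any motif goes with a level was not tested. No match overlapped another. Of the 8 members, 7 had a promoter window in the table, CLEC2B not among them, and none of the 7 held the interferon-stimulated or NF-kB motif as spelled here. Those motifs occur in 3.57% and 1.61% of all windows.
ULBP1, chr6:149963693-149963992: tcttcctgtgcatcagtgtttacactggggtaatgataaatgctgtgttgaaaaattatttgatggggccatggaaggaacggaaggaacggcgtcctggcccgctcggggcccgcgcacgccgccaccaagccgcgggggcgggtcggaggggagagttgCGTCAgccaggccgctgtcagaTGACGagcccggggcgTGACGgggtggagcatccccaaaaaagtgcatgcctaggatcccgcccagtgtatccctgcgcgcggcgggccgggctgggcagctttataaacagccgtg
ULBP2, chr6:149941764-149942063: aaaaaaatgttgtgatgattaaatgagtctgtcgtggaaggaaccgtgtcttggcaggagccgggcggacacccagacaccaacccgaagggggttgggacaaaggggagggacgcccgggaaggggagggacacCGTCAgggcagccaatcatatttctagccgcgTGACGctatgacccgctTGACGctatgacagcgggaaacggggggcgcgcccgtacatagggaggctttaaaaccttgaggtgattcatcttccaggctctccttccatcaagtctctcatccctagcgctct

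RAET1E, RAET1G and RAET1L encode the other human ligands of the ULBP family, and they were singled out after their values were seen. RAET1G read 204 on siCtrl and 79.3 on siPML, with 192 on vector and 198 on WDR4, a difference of -1.35 ± 0.17 (technical SE) between siPML and siCtrl. The brighter RAET1E probe read 116, 49.7, 183 and 270 (-1.20 ± 0.17, technical SE), while its dimmer probe read 13.5 to 19.0 with siCtrl lowest. On RAET1G and on the brighter RAET1E probe siPML was the lowest array, as for ULBP2, and the paired readings of siPML and siCtrl did not overlap. RAET1L read 253, 335, 231 and 261, and was higher on siPML by 0.40 ± 0.11 (technical SE). RefSeq lists RAET1L also as a synonym of ULBP2, and signal shared between these close relatives was not tested.

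ULBP3, a further lipid-anchored NKG2D ligand, was dim, and WDR4 was its highest array. It read 32.4 on siCtrl and 35.1 on siPML, with 32.1 on vector and 49.0 on WDR4. The paired readings of siCtrl and siPML overlapped, and so did those of siCtrl and vector. Those of WDR4, 43.7 and 54.4, lay above those of vector, 29.2 and 34.9. The difference of 0.60 ± 0.17 (technical SE) stands beside a median of 0.32 for probes of like intensity.

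NCR3LG1 was highest on the vector array. Its brighter probe read 639 on siCtrl and 884 on siPML, with 1905 on vector and 1653 on WDR4. The plasmid arrays thus lay above both siRNA arrays, and vector exceeded siCtrl 2.98-fold (1.57 ± 0.09, technical SE). siPML exceeded siCtrl 1.38-fold (0.47 ± 0.11, technical SE), and WDR4 differed from vector by -0.20 ± 0.08 (technical SE). The dimmer probe read 9.44, 17.1, 17.2 and 7.50 in the same order. Its readings on siPML, 7.56 and 26.5, overlapped those on siCtrl, 7.21 and 11.7.

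**Figure D3:**
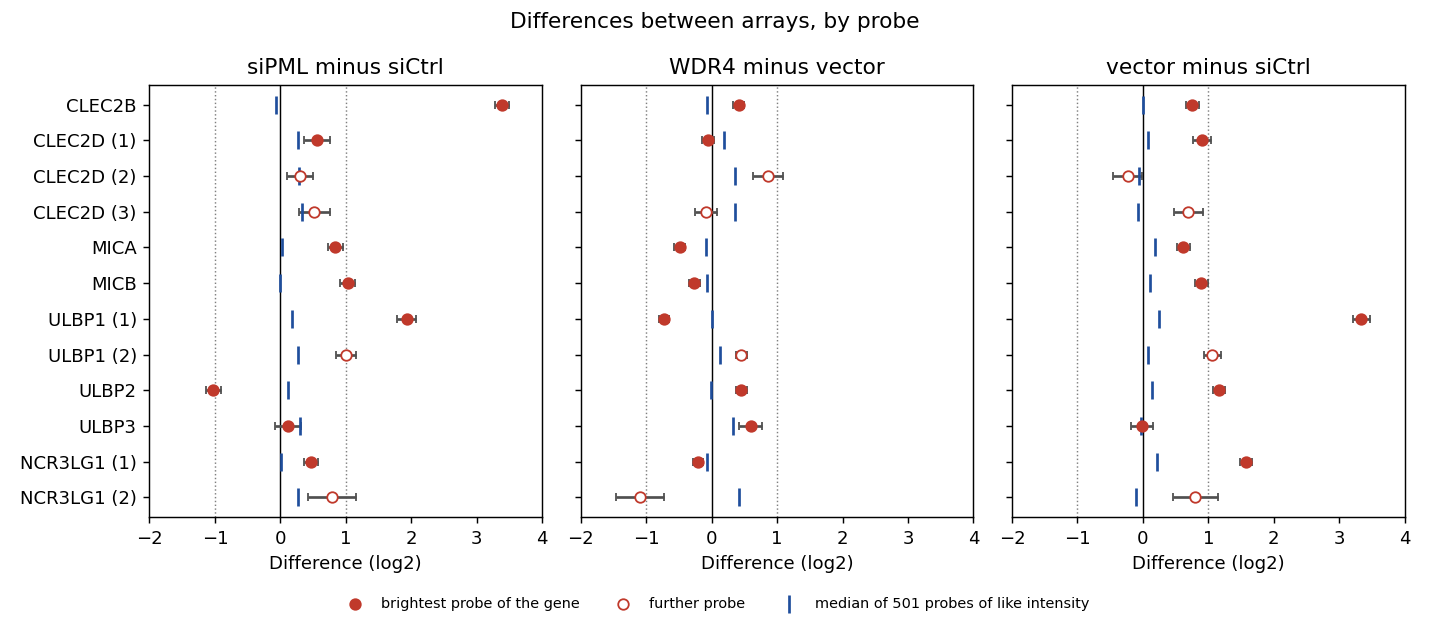
Log2 differences of each of the 12 probes in 3 comparisons of arrays; filled points are the brightest probe of a gene, open points further probes, bars the technical SE and blue ticks the running median of probes of like intensity. Dotted lines mark 2-fold. CLEC2B (3.39) and ULBP1 (1.93) lie highest and ULBP2 (-1.02) lowest for siPML minus siCtrl, no brightest probe reaches 2-fold for WDR4 minus vector, and ULBP1 (3.34) lies highest for vector minus siCtrl.

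With the brightest probe of each gene, 3 of the 8 members were at least 2-fold higher on siPML than on siCtrl (CLEC2B, ULBP1 and MICB), against 4.02% of all named genes. ULBP2 was the 1 member at least 2-fold lower, against 3.17%. The median difference of the 8 members was 0.70, against 0.13 over all named genes. CLEC2B was chosen on this difference, and without it 2 of 7 were higher, 1 was lower and the median was 0.56. In WDR4 against vector 0 of 8 were at least 2-fold different, where 2.21% of all named genes were higher and 0.444% lower. The members' median there was -0.13, against 0.11. In vector against siCtrl 3 members were at least 2-fold higher (ULBP1, NCR3LG1 and ULBP2), against 9.28% of all named genes, and 0 were lower, against 2.94%. The medians were 0.90 and 0.03. ULBP2 did not reach 2-fold there after quantile normalization (0.93) or centring (0.92). The comparisons of siPML and of vector share the siCtrl array, which was the lowest of the 4 for 6 of the 8 genes. That array also had the lowest median over all probes, 106 units. The share of all named genes that were lowest on it was not computed.

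Of the 8 genes, 6 reached the median level of all named genes, 223 units, and CLEC2D and ULBP3 did not. The background shares depend on scaling. Over all named genes, 734 were at least 2-fold higher and 578 lower on siPML, or 540 and 660 after quantile normalization. For WDR4 against vector the counts were 404 and 81, or 153 and 146. For vector against siCtrl they were 1694 and 536, or 1239 and 695, and 1059 and 1098 after centring of each array on its median.

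**Figure D4:**
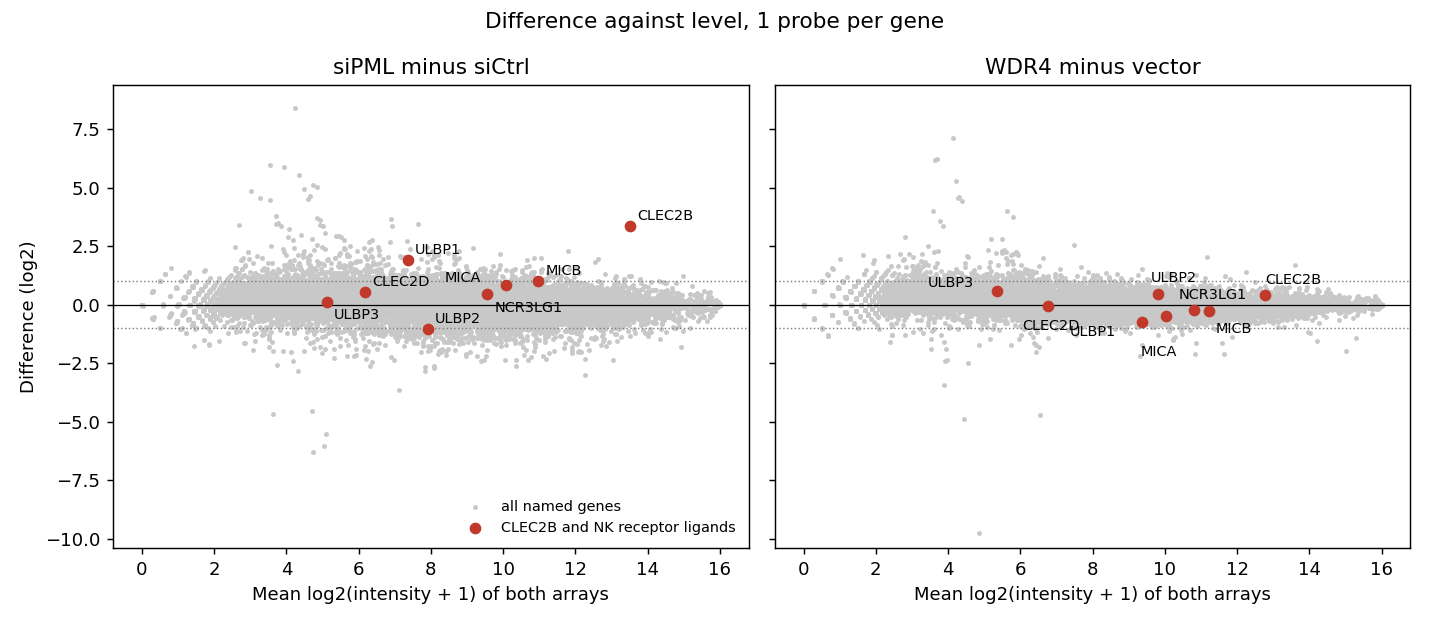
Log2 difference against the mean log2 level of both arrays, 1 probe per gene, for siPML minus siCtrl (left) and WDR4 minus vector (right); grey points are the 18255 named genes and red points the 8 members. Dotted lines mark 2-fold. CLEC2B lies at 3.39 in the left panel, and in the right panel all 8 members lie inside the 2-fold lines.

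Further genes of the NK cell encounter were read as lists of their roles, over the genes at or above the median level. The lists were chosen with earlier results of these data known, so their counts and medians are only a description beside the background shares. In these genes 2.3% were at least 2-fold higher and 4.27% lower on siPML than on siCtrl. For WDR4 against vector the shares were 0.362% and 0.285%. With each array's median set equal the counts behind them changed from 210 higher and 390 lower to 162 and 499 on siPML, and from 33 and 26 to 27 and 38 on WDR4.

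Of the 10 other activating ligands at that level, 2 were at least 2-fold higher and 0 lower on siPML. These were TNFSF9 (2.16) and CD70, the ligand of CD27, which read 3205 on siCtrl and 11296 on siPML, with 5825 on vector and 4563 on WDR4 (1.82). The list's median was 0.36, against 0.01 over all genes at that level. RAET1G (-1.35) and RAET1E (-1.20 with its brighter probe) are also on this list of 19 genes but lay below that level. Both were at least 2-fold lower on siPML, and neither enters the count or the median. Against the vector array 1 of the 10 was past 2-fold, since CD70 no longer was. PVR, a ligand of the activating receptor DNAM-1, differed by 0.35 from siCtrl, and for NECTIN2, another ligand of it, the 2 probes disagreed (-0.35 and 0.27). In WDR4 against vector 0 of the 10 passed 2-fold, with a median of 0.12 against -0.04. CALR, an endoplasmic reticulum chaperone also described as a ligand of NKp46, came closest at 1824 against 3638 units, just short of 2-fold, and the list had 1 gene past 2-fold when array medians were set equal.

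Of 7 inhibitory ligands and related genes at that level, 0 were at least 2-fold higher and 1 was lower on siPML, with a median of 0.08. With the vector array as control the median was -1.13 and 4 passed 2-fold. The gene lower than on siCtrl was CDH1 (E-cadherin, the ligand of the inhibitory receptor KLRG1), which read 5311 on siCtrl and 1374 on siPML, with 7828 on vector and 6882 on WDR4 (-1.95). Its other members at that level included CEACAM1 (0.44) and CD47 (-0.11). In WDR4 against vector 0 of 7 passed 2-fold, the median was 0.19, and CEACAM1 differed by 0.56. PCNA, described as an inhibitory ligand of NKp44, was at the top of the scale on siCtrl and read 40275 on siPML, so the size of its difference is not given. B2M differed on siPML by 0.23, and the 3 probes for HLA-F by -0.22 to 0.47.

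None of the 3 adhesion partners of NK cells at that level passed 2-fold in either comparison, with medians of -0.36 on siPML and -0.18 on WDR4. VCAM1, on this list but below that level, read 40.6 on siCtrl and 133 on siPML (1.69), with 456 on vector and 400 on WDR4. ICAM1, the ligand of the integrin LFA-1, read 490 on siCtrl and 360 on siPML, with 4125 on vector and 3391 on WDR4. Among 6 genes of ligand shedding 0 passed 2-fold in either comparison. Of these, PDIA6, which acts with proteases in the release of MICA, differed by 0.77 on siPML and -0.32 on WDR4, and the protease ADAM17 by 0.33 and 0.17. Of 6 genes of the response to killing, 1 was at least 2-fold lower on siPML. It was BID, the BCL2 family protein cleaved by granzyme B, at 262 against 555 units (-1.08). TNFRSF10A, a receptor of TRAIL, differed by 0.75 on siPML, and SERPINB9, the granzyme B inhibitor, by 0.62 on WDR4 with its brighter probe and by 1.18 with the other.

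Among 8 genes at that level described as regulators of NKG2D ligands 0 passed 2-fold in either comparison, with medians of -0.14 on siPML and -0.10 on WDR4. ATF4, a transcription factor of the stress response that acts on ULBP1, differed by 0.15 on siPML, and HSF1, which acts on MICA and MICB, by 0.07. The histone deacetylase HDAC3 differed by -0.85 and the checkpoint kinase CHEK1 by -0.64. On vector against siCtrl 4 of the 8 were higher and 4 lower, with a median of 0.27. HSF1 differed by 0.72 there and CHEK1 by -0.49, and the 2 probes for ATF4 disagreed, at 0.69 and -0.10. Of 11 other C-type lectin and neighbouring genes only 2 reached the median level, OLR1 and KLRG1, and they differed by -0.17 and 0.24 on siPML.

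**Figure D5:**
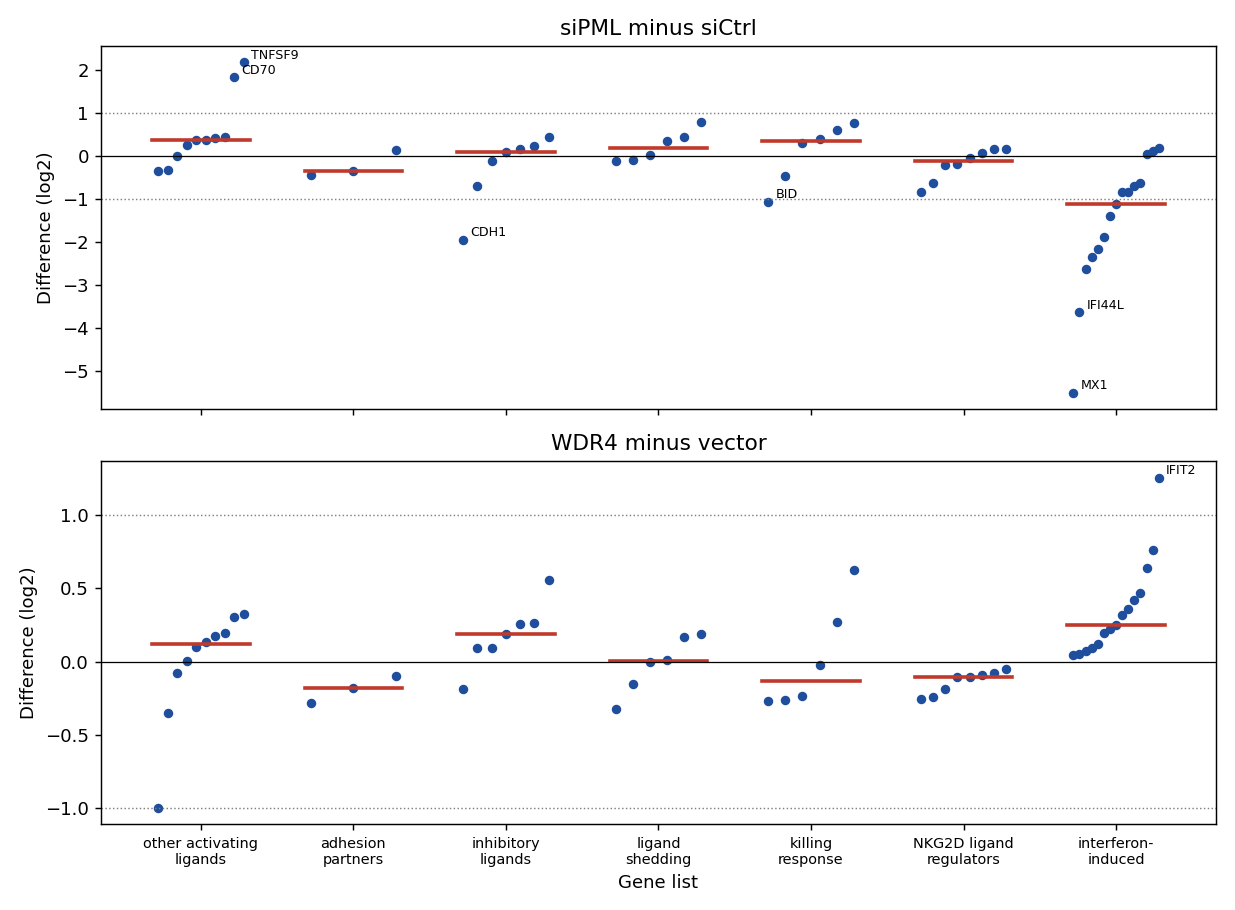
Log2 differences of the genes at or above the median level in 7 lists, 1 point per gene, with the list's median as a red line, for siPML minus siCtrl (top) and WDR4 minus vector (bottom; the axes differ in range). Dotted lines mark 2-fold. TNFSF9 (2.16) and CD70 (1.82) stand above and CDH1 (-1.95) below the other non-interferon genes in the top panel, where MX1 of the interferon list lies at -5.50.

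Interferon-induced genes moved strongly between the same arrays. Of 15 measured, 8 were at least 2-fold lower on siPML than on siCtrl and 0 higher, with a median of -1.12, and in WDR4 against vector 1 was higher (IFIT2, 1.25), with a median of 0.25. On vector they lay above siCtrl by 2.93 to 7.10. Without regard to the 2-fold line, 12 of the 15 were lower on siPML than on siCtrl and 3 were higher. MX1, at 4.07 units on siPML, differed most. ULBP2 was lower on siPML and higher on both plasmid arrays than on siCtrl. CLEC2B was higher than on siCtrl on every other array, by 3.39 on siPML, 0.76 on vector and 1.17 on WDR4. On vector 7 of the 8 members lay above siCtrl with their brightest probe, where 52.7% of all named genes did. The brighter CD274 (PD-L1) probe read 31.4 on siCtrl and 39.7 on siPML, with 661 on vector and 1111 on WDR4, and the dimmer one read 9.03 to 46.5. The part of the interferon response in the members' differences was not tested.

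Markers of other cells were read beside CLEC2B, since myeloid and lymphoid cells express it. Of 16 NK cell markers 15 had a probe, and their summed level over 1 probe per gene was 887 to 1182 units on the 4 arrays. KLRF1, the receptor of AICL, read 5.54 to 13.4, KLRB1 2.49 to 4.01 and the pan-leukocyte gene PTPRC 4.54 to 7.50. None of the markers was at 0, and GNLY read 383 to 514. The summed level of 8 myeloid markers was 9988 with siCtrl, 3723 with siPML, 8060.1 with vector and 6022 with WDR4, and the lower sum on siPML came from CD14, which read 9183, 2852, 7453 and 5205. Of the 8 markers 6 were higher on siPML than on siCtrl and 2 lower, where 62.2% of all named genes were higher. The 6 differed by 0.31 for CSF1R to 2.28 for LYZ, a myeloid enzyme that read 32.9 against 6.01 units. All 6 lay below the median level of all named genes. The part of these markers in the members' differences was not tested. For 8 T and B cell markers the sum was 1313 to 1703, and the brighter CD3D probe alone read 644 to 790. The dimmer CD3D probe, outside the sum, read 1.49 to 5.01. Of 8 markers of A549 and its epithelial origin, KRT7, KRT19, AKR1B10, AKR1C1 and ALDH1A1 read at least 7487 on every array. For AKR1C1 this holds for the brighter probe, and the dimmer one read 7.02 to 8.97. ALDH1A1 was close to the highest value on each array. AKR1B10 was at the top of the scale on siCtrl and read 32119.5 on vector. EPCAM read 861 to 1325, and KRT8 and NQO1 were dim, at up to 71.3 and 27.5. In total RNA of a culture, fewer cells with a transcript and less of it per cell cannot be told apart.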

How the data were processed

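Per the labels' protocols, total RNA of transfected A549 cells was amplified, labelled with Cy5 and hybridised to 1 array per group. Each probe has 1 deposited intensity per array on a linear scale. How the authors corrected background and normalized the arrays is not stated. Probes were named through the platform's annotation (24658 with 1 symbol, 1002 with several, 6081 with none), with 2177 symbols updated and 77 kept unmatched in the RefSeq gene table. Negative values were raised to 0 before log2(intensity + 1). The brightest probe represented a gene. No test was run with 1 array per group, and the 2-fold line is a description. The number of arrays limits the precision.

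Paired readings were sought as whole numbers times 2 constants per array (tolerance 2e-06 plus 1.2e-07 of the value). After a small constant shift of the values at most 0.169% could be split. For each array and range of level, the SD of the log2 ratio of paired readings was divided by 2, and both arrays' values were combined as a root sum of squares. The steps were tested on simulated arrays.

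Members, the 12 lists and alternatives were chosen with earlier results of these data known. By rule, genes named from a list were at or above the median level and either passed 2-fold in siPML against siCtrl or WDR4 against vector, or were among the 4 with the largest absolute difference. PVR, NECTIN2, VCAM1, HLA-F, B2M, CD274, ATF4, HSF1 and the RAET1 genes lie outside that rule and were named after their values were seen, as were markers. Python 3.11.15, numpy 2.4.6, pandas 2.3.3 and matplotlib 3.10.9 were used.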

Additional observations from a re-analysis of the deposited data

How the results depend on the processing

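The CLEC2B difference between siPML and siCtrl stayed between 3.28 and 3.45 under quantile normalization, centring, 16 added before log2, the mean over probes and removal of the running median, the last added after the data had been seen. With the vector array as control it was 2.63 and with the mean of both controls 3.01. CLEC2B on WDR4 was 0.50 after quantile normalization, 1.17 against siCtrl and 0.79 against both controls. Members at least 2-fold different on siPML numbered 4, and 2 with both controls (CLEC2B and ULBP2). Centring took MICB (0.93) and 16 added took ULBP2 (-0.96) below 2-fold. On WDR4 they numbered 0, but 4 against siCtrl, 1 against both controls and 2 at 1.5-fold. Against vector the count on siPML was 4 with other members: ULBP1 turned from 1.93 to -1.41, MICB dropped to 0.14, and NCR3LG1 turned from 0.47 to -1.11. Uncalled differences that also changed sign with the other control were CLEC2D on siPML (0.56 to -0.34) and, on WDR4, MICA (-0.49 to 0.13), MICB (-0.26 to 0.63), ULBP1 (-0.72 to 2.61), NCR3LG1 (-0.20 to 1.37) and CLEC2D (-0.05 to 0.84). With the control array kept, CLEC2D on WDR4 was -0.05, or 0.24 with the mean over probes, and ULBP3 on siPML was 0.11, or -0.19 with the running median removed. The cause was not tested. List medians on siPML turned against vector for the inhibitory (0.08 to -1.13), shedding (0.18 to -0.15) and killing response lists (0.34 to -0.36). On WDR4 they turned against siCtrl for the activating (0.12 to -0.04), adhesion (-0.18 to 0.35), killing response (-0.13 to 0.62) and regulator lists (-0.10 to 0.19). The median difference of all named genes was 0.13 on siPML and 0.11 on WDR4, and 0.03 and -0.01 after quantile normalization, and that of vector against siCtrl was 0.03, or -0.22 after centring. Dim probes limit the precision: the SD of the log2 ratio of paired readings was 0.101 to 0.158 at 300 to 600 units and up to 0.676 at 2 to 10 units. No paired analysis was possible because each group has 1 array.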
